A study of Mus musculus with 8 samples.

Results

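The genes described here are the executors of caspase-driven death, necroptosis and pyroptosis, given by name as Casp8, Fadd, Ripk3, Mlkl, Zbp1, Casp1, Casp4 and Gsdmd. They are 8 of the 55414 gene IDs in the count table, and each was found by matching its Ensembl ID to the symbol in the GENCODE mouse annotation. Their RNA was counted in Paneth cells, the granule-filled antimicrobial cells that sit at the bottom of crypts in the small intestine. The mice were of wild-type genotype and had received an injection of PBS (phosphate-buffered saline, the control, 4 libraries) or TNF (tumor necrosis factor, a cytokine of inflammation, 4 libraries). The cells were isolated with a sorter after 3 hours. The series asks what TNF does to Paneth cell gene expression, and its design calls the 4 libraries of a group biological replicates. The labels give no dose, age or sex, and the study's methods describe C57BL/6J mice.

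When the receptor for TNF is engaged, cells can survive and signal through NF-kB, or die. FADD brings caspase-8 to a complex that leads to apoptosis, in which the cell is taken apart without bursting. Where caspase-8 is held back, the kinase RIPK3 can phosphorylate MLKL, which breaks the plasma membrane (necroptosis), and ZBP1 is a sensor of unusual nucleic acids that can also switch on RIPK3. In pyroptosis, caspase-1 is activated by inflammasomes and the product of mouse Casp4, known as caspase-11, by bacterial lipopolysaccharide inside the cell. Both cut gasdermin D, encoded by Gsdmd, whose freed part makes pores in the membrane. RNA levels do not show whether any of these proteins was active.

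The libraries held 23824717 to 32576077 counts. The 8 genes together took 1499 to 2516 counts in PBS libraries and 3817 to 7891 in TNF libraries. Levels are given as normalized CPM, the counts scaled to a common library size with edgeR's TMM factors. TNF replicate 4 stood apart: its TMM factor was 0.448, against 0.995 to 1.36 in the other libraries, and 51.4% of its counts fell on alpha-defensin genes, against 32.0% to 37.9%. Results are therefore also given without it. All 8 Paneth markers listed were measured, with a summed level of 311580 to 459627 normalized CPM in PBS and 388788 to 1209890 in TNF. The highest of these sums was that of TNF replicate 4. Of 12 immune cell markers, 5 (Adgre1, S100a8, Cd3e, Cd79a and Tyrobp) had no count in any library, and the summed level of the list was 10.2 to 14.7 in PBS and 14.0 to 71.4 in TNF, the highest being TNF replicate 4, where Lyz2 alone stood at 64.4. Of 8 markers of stroma and endothelium, 2 (Col1a2 and Col3a1) had no count, and the list summed to 0.223 to 0.453 in PBS and 1.23 to 1.84 in TNF. Enteroendocrine markers summed to 10.3 to 13.2 in PBS and 30.3 to 61.0 in TNF, and 3 of the 4 that could be tested were higher. Goblet cell markers summed to 7160 to 11190 and 11243 to 25451, stem cell markers to 1894 to 2783 and 1709 to 2242, enterocyte markers to 97.4 to 135.2 and 47.8 to 101.8, and tuft cell markers to 11.9 to 27.3 and 7.58 to 52.9. TNF replicate 4 held the highest TNF sum of the Paneth, goblet, enterocyte, enteroendocrine, tuft and immune lists. Without it the TNF sums were at most 453395 for Paneth, 12030 for goblet, 56.1 for enterocyte, 39.9 for enteroendocrine, 14.7 for tuft and 16.8 for immune markers. Over all genes tested, 23.3% were called higher and 19.6% lower. Of the 8 Paneth markers, 2 were called higher by edgeR (Pla2g2a and Nupr1) and none lower, with a median log2 fold change of 0.68. The share higher is near that of all genes. Of the 6 stem cell markers tested, 4 were called lower by edgeR (Lgr5, Axin2, Ascl2 and Smoc2) and none higher, with a median log2 fold change of -0.89. Of the 8 enterocyte markers, 2 were called lower, Apoa4 among them, and none higher, with a median of -0.77, and the share lower is near that of all genes. Goblet cell markers went both ways, with Muc2 called higher and Clca1 and Fcgbp lower, and no tuft cell marker was called. Clca1 stood at 554.0 normalized CPM in PBS replicate 1 against 41.1 to 44.0 in the other PBS libraries, and its groups overlapped. Fcgbp was also highest in that library, at 1130 against 551 to 658. Cd52 among immune markers and Vim among stromal markers were called higher. The part of these cells in the results below was not tested.

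In TNF, 7 of the 8 executors were higher than in PBS and none was lower. Casp4 rose the most, by 28.5-fold, followed by Mlkl at 6.13-fold and Gsdmd at 5.02-fold. Casp8, Zbp1, Ripk3 and Casp1 rose between 2.30-fold and 3.62-fold. Fadd, which links the TNF receptor complex to caspase-8, was the exception: its groups overlapped and it was not called. A gene was called when the adjusted p of edgeR's quasi-likelihood test was under 0.05, and 43.0% of the 13368 genes tested were called. Those called higher made up 23.3% of the genes tested and those called lower 19.6%. A rise of at least 2-fold was called for 7 of 8 executors and for 9.76% of all genes, and a fall of at least 2-fold for no executor and 8.24% of all genes. The median log2 fold change was 1.79 for the 8 executors and 0.03 for all genes tested. In these bulk samples, more cells of a type and more RNA per cell cannot be told apart.

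**Figure D1:**
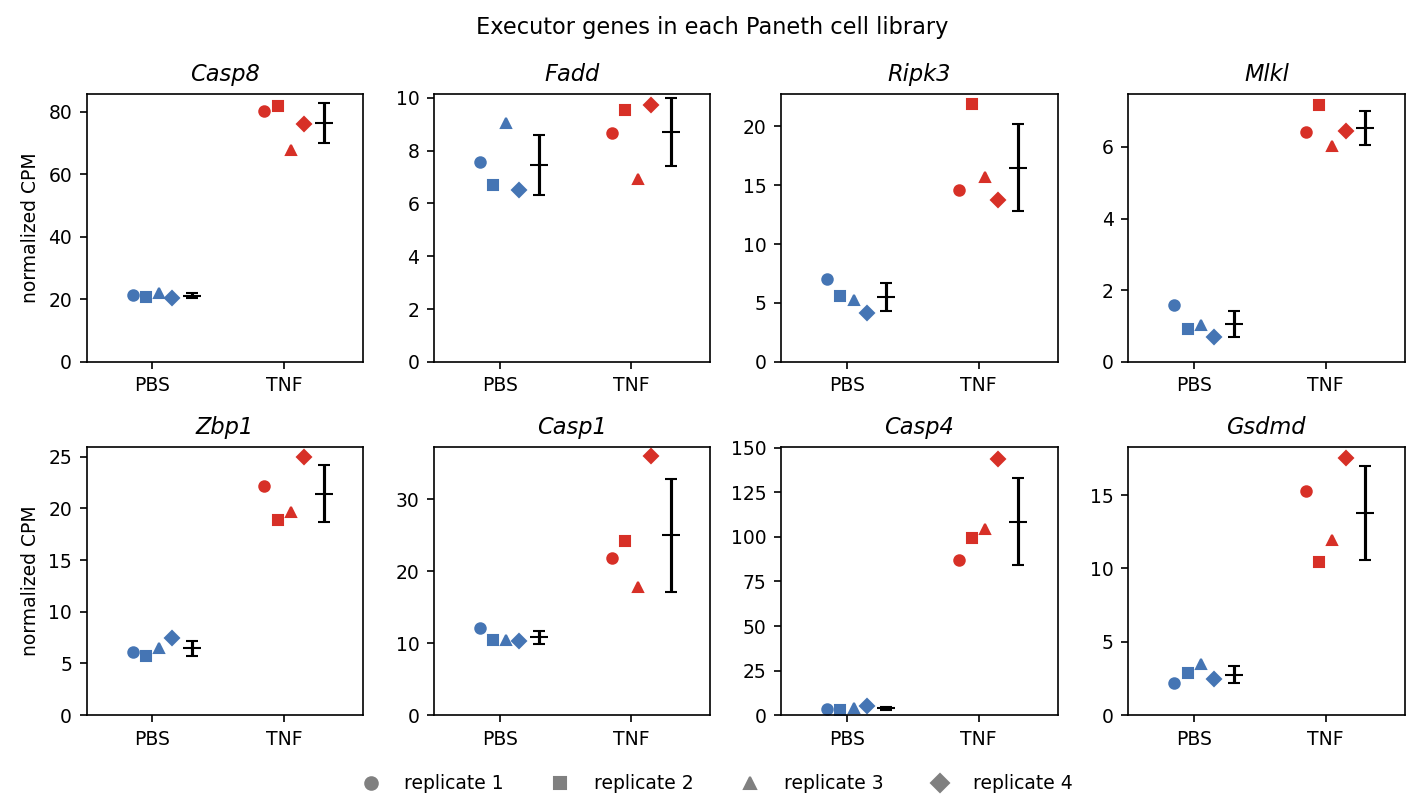
Normalized CPM of each executor gene on its own linear axis from 0, with 1 point per library, its shape marking the replicate number, and the mean ± SD (n = 4) of each group beside the points. The groups are apart in every panel but that of Fadd, where PBS values of 6.52 to 9.03 and TNF values of 6.92 to 9.71 interleave.

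Casp8 (ENSMUSG00000026029, chr1:58834375-58886665, plus strand, GRCm39) encodes the caspase that starts apoptosis from death receptors and cuts RIPK1 and RIPK3. Its level was 21.3, 20.6, 22.1 and 20.4 normalized CPM in PBS replicates 1 to 4 and 80.1, 81.7, 67.6 and 76.0 in TNF replicates 1 to 4. The lowest TNF library was thus far above the highest PBS library, and the PBS libraries lay close together. The mean went from 21.1 ± 0.768 (SD, n = 4) to 76.4 ± 6.30 (SD, n = 4). On the log2 scale TNF was higher by 1.85 (SE 0.11, edgeR adjusted p = 5.39e-07). Only 3.61% of the genes tested had a log2 fold change as large or larger.

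Fadd (ENSMUSG00000031077, chr7:144131055-144136211, minus strand) encodes the adaptor without which caspase-8 is not recruited. PBS replicates 1 to 4 stood at 7.56, 6.70, 9.03 and 6.52 normalized CPM and TNF replicates 1 to 4 at 8.66, 9.52, 6.92 and 9.71. The groups overlapped, with PBS replicate 3 above TNF replicates 1 and 3. Means were 7.45 ± 1.15 and 8.70 ± 1.27 (SD, n = 4 each), and the log2 fold change of 0.22 (SE 0.16, 95% interval -0.13 to 0.57, edgeR adjusted p = 0.284) was not called. Its sign also turned, to -0.19, when libraries were scaled by their total counts alone. Fadd shares exon bases with the antisense transcript Faddos, which had 24 to 61 counts per library, and the sources used here do not say whether the counting used strand.

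Among the necroptosis genes, Ripk3 (ENSMUSG00000022221, chr14:56022452-56026324, minus strand) encodes the kinase that activates MLKL. It stood at 7.0, 5.62, 5.24 and 4.17 normalized CPM in PBS replicates 1 to 4 and at 14.6, 21.9, 15.7 and 13.7 in TNF replicates 1 to 4. Every TNF library was above every PBS library, and TNF replicate 2 was the highest. The mean rose from 5.51 ± 1.17 to 16.5 ± 3.70 (SD, n = 4 each), and the log2 fold change was 1.59 (with an SE of 0.20, edgeR adjusted p = 9.69e-05).

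Mlkl (ENSMUSG00000012519, chr8:112036296-112065168, minus strand), the gene of the membrane-breaking effector itself, was the scarcest of the 8 in both groups. PBS replicates 1 to 4 had 59, 25, 26 and 31 counts, or 1.58, 0.930, 1.03 and 0.702 normalized CPM. TNF replicates 1 to 4 had 181, 207, 172 and 75 counts, or 6.43, 7.17, 6.04 and 6.44 normalized CPM. The TNF libraries agreed closely with each other and did not overlap the PBS libraries. The mean went from 1.06 ± 0.374 to 6.52 ± 0.471 (SD, n = 4 each), which is 2.62 on the log2 scale (SE 0.24, edgeR adjusted p = 1.15e-05). This was the second largest rise among the executors, and 1.92% of genes rose as much or more.

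Zbp1 (ENSMUSG00000027514, chr2:173033815-173060724, minus strand) encodes the nucleic acid sensor that binds RIPK3 and is known as an interferon-stimulated gene. Levels were 6.14, 5.69, 6.54 and 7.47 normalized CPM in PBS replicates 1 to 4 and 22.2, 18.9, 19.7 and 25.0 in TNF replicates 1 to 4. The groups were well apart. Means were 6.46 ± 0.757 and 21.4 ± 2.75 (SD, n = 4 each), and the log2 fold change was 1.72 (SE 0.14, edgeR adjusted p = 5.09e-06). Its promoter is shown because it held more interferon-type motifs than that of any other executor. The 130 bases just before its annotated start (chr2:173060725-173060854, GRCm39, minus strand, 5′ to 3′) are printed with capitals on the bases that match a core of the interferon-stimulated response element (ISRE, GAAA and GAAA with 2 bases of any kind between them) or the gamma-activated sequence (GAS, TTCNNNGAA) on either strand.
Zbp1 promoter: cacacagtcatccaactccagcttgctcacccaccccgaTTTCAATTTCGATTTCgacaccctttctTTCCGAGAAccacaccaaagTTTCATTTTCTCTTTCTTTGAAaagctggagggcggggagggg
The ISRE core matched at 4 places, which begin 91, 85, 43 and 37 bases before the start and overlap in pairs. GAS matched at 2 places, which begin 63 and 30 bases before the start, and the second shares bases with an ISRE match.

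The inflammatory caspase Casp1 (ENSMUSG00000025888, chr9:5298508-5307290, plus strand) encodes the enzyme that matures interleukin-1 beta and interleukin-18 and cuts gasdermin D. It was measured at 12.1, 10.4, 10.4 and 10.3 normalized CPM in PBS replicates 1 to 4 and at 21.9, 24.3, 17.8 and 36.0 in TNF replicates 1 to 4. All TNF libraries were higher than all PBS libraries, but TNF replicate 4 was far above the other TNF libraries. The mean went from 10.8 ± 0.884 to 25.0 ± 7.82 (SD, n = 4 each), the smallest called rise of the executors, at 1.20 on the log2 scale (SE 0.20, edgeR adjusted p = 0.000621). It was 0.99 without TNF replicate 4 (edgeR adjusted p = 6.38e-05). With library size alone as the scaling it was 0.70 and was no longer called (edgeR adjusted p = 0.0717).

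Casp4 (ENSMUSG00000033538, chr9:5308828-5336783, plus strand), the neighbour of Casp1 on chromosome 9, encodes the lipopolysaccharide-sensing caspase of the non-canonical route to pyroptosis. PBS replicates 1 to 4 held 3.22, 2.94, 3.98 and 5.0 normalized CPM, from 120, 79, 101 and 221 counts. TNF replicates 1 to 4 held 87.2, 99.3, 104.2 and 143.5 normalized CPM, from 2457, 2869, 2969 and 1670 counts. No TNF library came near the PBS range. Means were 3.79 ± 0.924 and 108.6 ± 24.4 (SD, n = 4 each), so that TNF was 4.83 higher on the log2 scale (SE 0.23, 95% interval 4.33 to 5.33, edgeR adjusted p = 2.19e-07). Casp4 ranked 67 of 13368 genes by its rise, so that 0.501% of genes rose as much or more. Its promoter is printed because it was the only executor promoter with a match to the NF-kB consensus. The stretch runs from 130 to 16 bases before the annotated start (chr9:5308713-5308827, GRCm39, plus strand, 5′ to 3′), and capitals mark the matches.
Casp4 promoter: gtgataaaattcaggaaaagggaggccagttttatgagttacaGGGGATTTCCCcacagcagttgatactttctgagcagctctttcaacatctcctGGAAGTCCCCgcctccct
Matches lay at 2 separate places, 87 to 77 and 33 to 24 bases before the start. The first held overlapping matches, also across strands.

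Gsdmd (ENSMUSG00000022575, chr15:75733974-75739257, plus strand) encodes the pore former on which both inflammatory caspases act. Its levels were 2.20, 2.86, 3.51 and 2.44 normalized CPM in PBS replicates 1 to 4 and 15.3, 10.5, 11.9 and 17.5 in TNF replicates 1 to 4. The lowest TNF value was well above the highest PBS value. The mean went from 2.75 ± 0.573 to 13.8 ± 3.21 (SD, n = 4 each), or by 2.33 on the log2 scale (SE 0.21, edgeR adjusted p = 1.02e-05).

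The 7 genes called higher were those whose TNF values all lay above their PBS values, a pattern found in 22.4% of the genes tested, while in 42.1% the groups did not overlap in either direction. Without TNF replicate 4 the same 7 were called, with log2 fold changes of 4.68 for Casp4, 2.64 for Mlkl, 2.22 for Gsdmd, 1.87 for Casp8, 1.67 for Ripk3, 1.66 for Zbp1 and 0.99 for Casp1. Fadd then stood at 0.19 and was not called. Scaling by total counts alone moved the median log2 fold change of all genes from 0.03 to -0.38 and the share of calls that were higher from 54.3% to 23.8%. On that scale the executors' median was 1.38, and all but Casp1 and Fadd were called higher, against 757 of the 13368 genes tested. Between 86.7% (Mlkl) and 100% (Casp4, Ripk3 and Zbp1) of the 75-base stretches of each executor's transcript occur in no transcript of another gene.

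**Figure D2:**
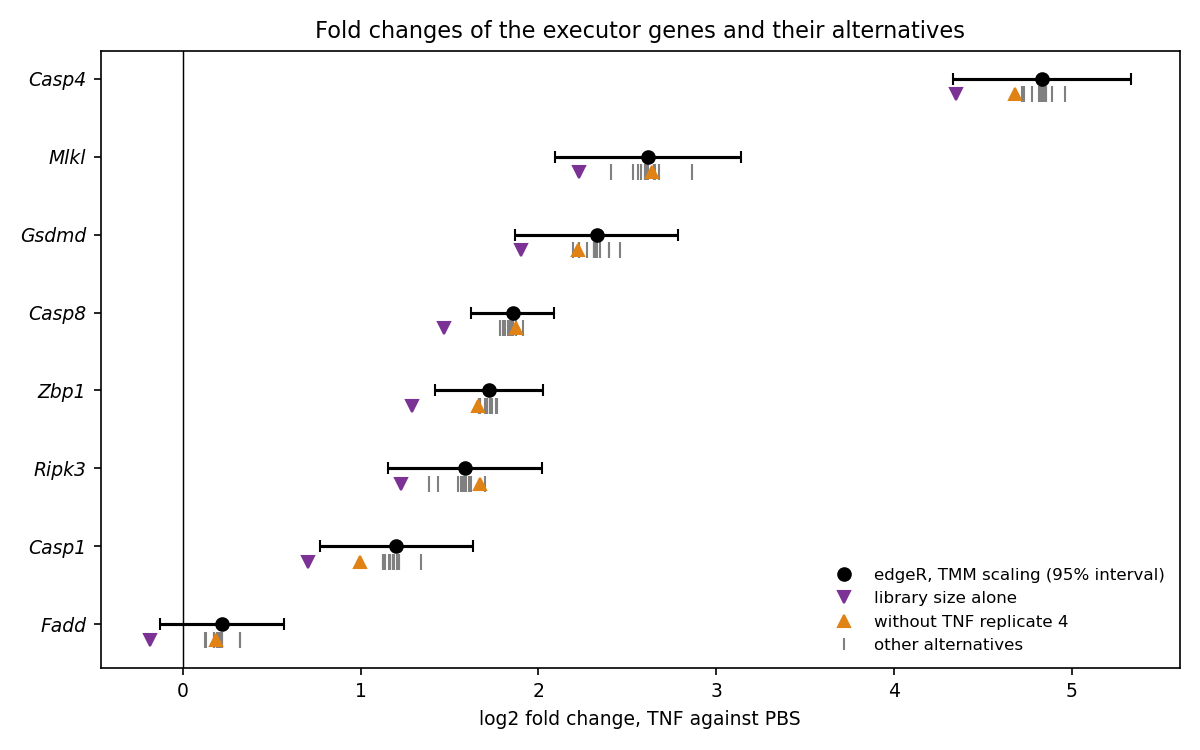
Log2 fold change of TNF against PBS for each executor (x axis, log2 scale), with the 95% interval of the edgeR fit and marks for the fit without TNF replicate 4, for scaling by library size alone and for the other alternatives. Only Fadd has an interval that holds 0, and the marks for library size alone sit lowest for all 8 genes.

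Promoters were compared over the same window, the 300 bases before the annotated start, in 11674 protein-coding genes that were tested. The ISRE core was in 3.72% of these promoters and in those of 2 executors, Zbp1 and Mlkl, where Mlkl had 3 overlapping matches that begin 262, 256 and 250 bases before the start. The start used is that of the canonical transcript, and the whole Mlkl window of 300 bases lies within another annotated transcript of Mlkl, so its matches are in sequence annotated as transcribed. GAS was in 7.97% of promoters and, among executors, in that of Zbp1. The NF-kB consensus was in 9.77% and, among executors, in that of Casp4. Promoter windows of Casp8, Fadd, Ripk3, Casp1 and Gsdmd held none of these letters. A match describes the sequence and does not show that a factor binds there.

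Levels can be compared between genes per length of exon, here as normalized CPM per kilobase of all annotated exons. In PBS, Casp8 was the most abundant at 6.85 ± 0.249 (SD, n = 4), then Casp1 at 3.44 ± 0.282, and their libraries did not overlap. Ripk3 (2.18 ± 0.462), Fadd (1.90 ± 0.293) and Zbp1 (1.51 ± 0.176) followed, and each overlapped the next. Gsdmd (0.917 ± 0.191) and Casp4 (0.721 ± 0.176) overlapped as well, and Mlkl was last at 0.183 ± 0.0645.

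In TNF, Casp4 stood second on the same per-kilobase scale at 20.7 ± 4.64 (SD, n = 4) and overlapped Casp8 at 24.8 ± 2.04. Casp1 (7.97 ± 2.49), Ripk3 (6.51 ± 1.46), Zbp1 (4.99 ± 0.641) and Gsdmd (4.60 ± 1.07) formed a run in which each overlapped the next. Fadd, at 2.22 ± 0.326, was below all of these, and Mlkl was again last at 1.13 ± 0.0813. When the length of the longest coding transcript was used, 5 of 8 genes kept their place in PBS and 4 of 8 in TNF. Casp4 then came first in TNF at 32.5, ahead of Casp8 at 27.7.

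**Figure D3:**
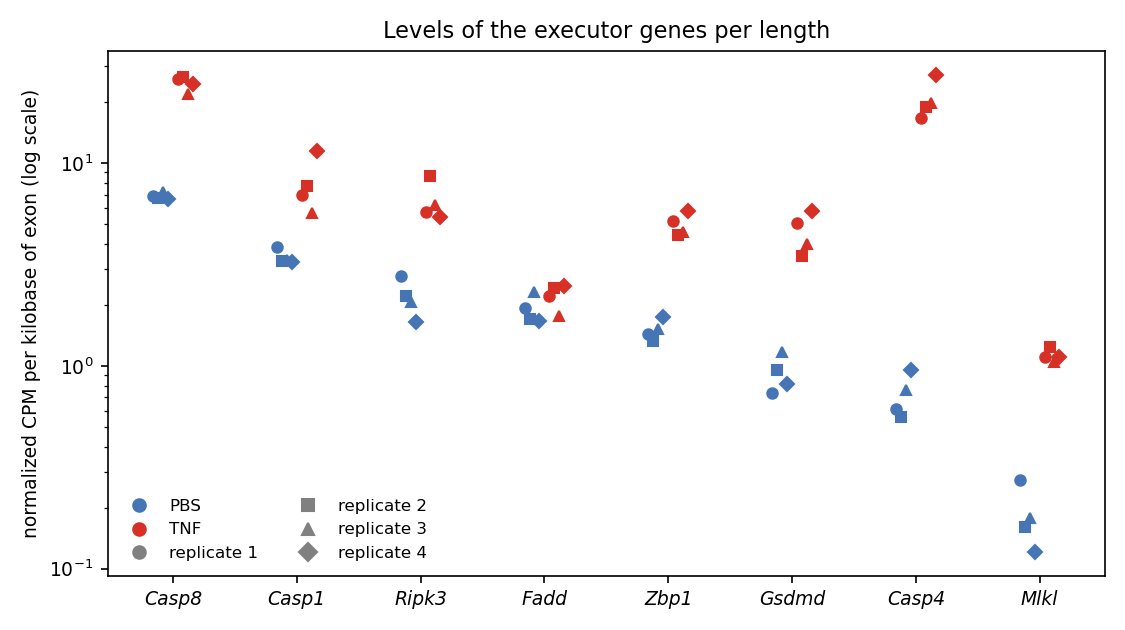
Normalized CPM per kilobase of exon (y axis, log scale) of the 8 executors in PBS and TNF, with 1 point per library, blue for PBS and red for TNF, in the order of the PBS means. The mean of Casp4 goes from 0.721 in PBS, the seventh place, to 20.7 in TNF, the second, while that of Fadd goes from 1.90 to 2.22.

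Ratios of genes within a library do not depend on the scaling between libraries. For each of 5 ratios, PBS and TNF were set against each other in an exact permutation test (two-sided) on the 8 libraries, whose smallest possible p is 0.0286, with adjustment over the 5. Casp4 had 0.266, 0.284, 0.382 and 0.488 counts for each Casp1 count in PBS replicates 1 to 4 and 3.98, 4.09, 5.86 and 3.98 in TNF replicates 1 to 4. The balance between these neighbouring caspases was thus on the side of Casp1 in every PBS library and on the side of Casp4 in every TNF library. The mean log2 ratio went from -1.54 ± 0.40 to 2.14 ± 0.27 (SD, n = 4 each; exact permutation p = 0.0286, adjusted p = 0.0357).

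The substrate Gsdmd also gained on Casp1. It had 0.182, 0.277, 0.337 and 0.239 counts per Casp1 count in PBS and 0.699, 0.431, 0.672 and 0.487 in TNF. The groups did not overlap, and the mean log2 ratio differed by 1.15 (exact permutation p = 0.0286, adjusted p = 0.0357, n = 4 each). Mlkl gained on its kinase Ripk3 in the same way, from 0.228, 0.168, 0.199 and 0.171 counts per Ripk3 count in PBS to 0.442, 0.328, 0.385 and 0.470 in TNF. The log2 difference was 1.09 (exact permutation p = 0.0286, adjusted p = 0.0357, n = 4 each).

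The rises of Ripk3 and Casp8, by contrast, were not shown to differ. Their ratio was 0.329, 0.273, 0.238 and 0.205 in PBS and 0.182, 0.268, 0.232 and 0.181 in TNF. The groups overlapped, and the log2 difference of -0.27 was not called (exact permutation p = 0.2, adjusted p = 0.2, n = 4 each). Cflar encodes cFLIP, the relative of caspase-8 that holds it in check, and it fell behind Casp8. Its ratio to Casp8 was 1.21, 0.973, 0.996 and 1.28 in PBS and 0.512, 0.367, 0.515 and 0.440 in TNF, a log2 difference of -1.29 (exact permutation p = 0.0286, adjusted p = 0.0357, n = 4 each). All TNF libraries lay below all PBS libraries.

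**Figure D4:**
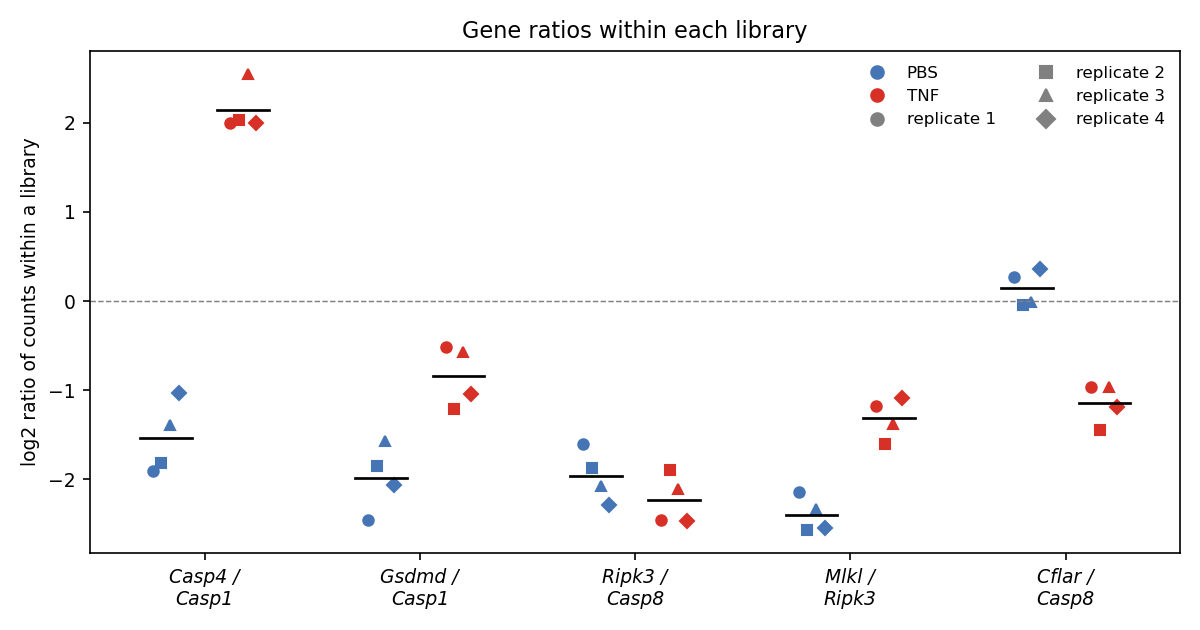
Log2 ratio of counts within each library (y axis, log2 scale) for 5 pairs of genes, with 1 point per library and a bar at the mean of each group of 4. PBS and TNF points are apart for 4 ratios and overlap for Ripk3 to Casp8, whose means are -1.96 and -2.23.

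Genes around the executors were described through lists of the same pathways. Of 12 partners and brakes of Casp8 and Ripk3, 9 were called higher and none lower, with a median log2 fold change of 0.67, where 23.3% of all genes were higher and 19.6% lower, and the 3 not called were Tradd, Birc2 and Xiap. Without TNF replicate 4, Xiap was called higher at a log2 fold change of 0.38 (edgeR adjusted p = 0.00490), which made 10 of the 12. Birc3, a ubiquitin ligase that keeps RIPK1 from forming death complexes, stood at 7.62, 6.10, 7.92 and 10.7 normalized CPM in PBS replicates 1 to 4 and at 191.3, 189.3, 222.3 and 162.6 in TNF replicates 1 to 4. Its rise was 23.6-fold (log2 fold change 4.56, SE 0.20, edgeR adjusted p = 1.54e-07). Tnfaip3, whose product edits ubiquitin chains and dampens NF-kB signalling, rose by 3.96 on the log2 scale (SE 0.19, edgeR adjusted p = 2.72e-07), from 3.48 ± 1.03 to 54.7 ± 3.83 (SD, n = 4 each). Ripk1, the kinase that stands between survival and death below the receptor, rose by 1.76 (SE 0.16, edgeR adjusted p = 1.34e-05).

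The inhibitor Cflar had 25.8, 20.1, 22.0 and 26.2 normalized CPM in PBS replicates 1 to 4 and 41.0, 30.0, 34.8 and 33.4 in TNF replicates 1 to 4. No TNF library was below a PBS library, yet the rise of 0.56 (SE 0.13, edgeR adjusted p = 0.00589) was small beside that of Casp8. With library size alone as the scaling, 3 of the 12 partners were called higher, namely Birc3, Tnfaip3 and Ripk1, and Cflar stood at 0.18. Under that scaling 757 of the 13368 genes tested were called higher.

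Of 12 genes of the mitochondrial route and effector caspases, 5 were called higher, 2 lower and 5 neither way, with a median log2 fold change of 0.37, where 23.3% of all genes were higher and 19.6% lower. Apaf1, the scaffold of the apoptosome, rose from 14.2 ± 2.28 to 89.4 ± 14.2 normalized CPM (SD, n = 4 each), or by 2.66 on the log2 scale (SE 0.16, edgeR adjusted p = 7.62e-07). Casp9, the caspase that this scaffold activates, fell by 1.13 (SE 0.13, edgeR adjusted p = 6.10e-05), with 9.01, 8.48, 9.58 and 10.6 normalized CPM in PBS replicates 1 to 4 against 4.19, 4.67, 4.04 and 4.38 in TNF replicates 1 to 4. The pair thus went in opposite directions in all libraries. Bid, which caspase-8 cuts to carry the signal to mitochondria, rose by 2.12 (SE 0.12, edgeR adjusted p = 5.54e-07).

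Other called genes of this list, chosen for naming after their values were seen, included Casp6, a caspase of the execution phase, which fell by 0.56 (edgeR adjusted p = 0.00123), and Cycs (1.14) and Htra2 (0.54), both higher. With library size alone, 2 genes of the list were called higher, against 757 of the 13368 genes tested, and Cycs and Htra2 were not among them. Htra2 also lost its call without PBS replicate 1 (edgeR adjusted p = 0.067) and without PBS replicate 3 (edgeR adjusted p = 0.0679). With all libraries its edgeR adjusted p was 0.0262, so that it was not called at the stricter threshold of 0.01.

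Inflammasome genes lie above Casp1 in the pathway. Of 16 listed, 9 had enough counts to be tested, 1 was higher and 2 were lower, and the median log2 fold change was -0.03. Over all genes tested 23.3% were higher and 19.6% lower, with a median of 0.03, so these counts are near the background. Nlrp6, a sensor known for its part in the intestinal epithelium, stood at 54.3, 52.9, 61.1 and 42.0 normalized CPM in PBS replicates 1 to 4 and at 14.2, 9.24, 6.46 and 10.2 in TNF replicates 1 to 4. It fell by 2.39 on the log2 scale (SE 0.22, edgeR adjusted p = 1.33e-05). Nlrc4, the platform that works with NAIP proteins against bacterial flagellin and secretion systems, rose by 1.07 (SE 0.16, edgeR adjusted p = 0.000363), although with library size alone it was at 0.65 and not called. Nek7, needed for the NLRP3 inflammasome, fell by 0.56 (SE 0.11, edgeR adjusted p = 0.0022).

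Pycard encodes ASC, the adaptor that joins sensors to caspase-1. It was at 38.8, 42.5, 41.7 and 33.9 normalized CPM in PBS replicates 1 to 4 and at 22.6, 24.4, 20.3 and 49.0 in TNF replicates 1 to 4. On this scale it was below all PBS libraries in 3 TNF libraries and above them in TNF replicate 4. Scaled by total counts alone, it stood at 44.4 to 48.7 CPM in PBS libraries and 21.6 to 25.0 in TNF libraries. All TNF libraries, replicate 4 included, were then below all PBS libraries. With TMM scaling the log2 fold change of -0.44 (SE 0.25) was not called (edgeR adjusted p = 0.174). Without TNF replicate 4 it was -0.79 and was called (edgeR adjusted p = 0.000146). It was also called lower with library size alone, at -0.99 (edgeR adjusted p = 0.0107), and without a filter beyond 1 count, at -0.52 (edgeR adjusted p = 0.0406). Without TNF replicate 4 the list had 4 genes called lower in place of 2, and without TNF replicate 1, 2 or 3, or PBS replicate 2, it had 3. Nlrp1b was added each time, and Pycard only without TNF replicate 4. Nlrp1b was too low for the filter over all libraries and passed it in these smaller fits through its PBS libraries alone, where it was high, so that its calls were fixed by the filter and add nothing to the count of the list. Low counts left 7 genes untested, the cytokine substrates among them: Il1b had at most 1 count and Il18 2 to 11 counts per library, and Nlrp3 had at most 1.

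Of 11 genes in the list of other gasdermins, Casp12 and Ninj1, 6 could be tested, 2 were higher and 1 was lower, a share of calls near the 43.0% of all genes. Ninj1, whose product ruptures the plasma membrane after lytic death has begun, rose from 20.8 ± 2.34 to 61.8 ± 10.9 normalized CPM (SD, n = 4 each), or by 1.57 on the log2 scale (SE 0.14, edgeR adjusted p = 1.23e-05). Gsdme, another pore former of the gasdermin family, fell by 1.01 (SE 0.15, edgeR adjusted p = 0.000318), from 7.14 ± 0.532 to 3.57 ± 0.515, and so went the other way from Gsdmd. Gsdma2 was called higher at 0.68 (edgeR adjusted p = 0.0205), but its groups overlapped and the call was lost without PBS replicate 1, PBS replicate 2 or TNF replicate 1 and with library size alone. The number called higher was 3 without TNF replicate 4, which added Gsdma, and 1 without PBS replicate 2 or TNF replicate 1. The number called lower was 2 without PBS replicate 3, PBS replicate 4 or TNF replicate 2 and 3 without TNF replicate 4, the additions being Gsdmc2, Gsdmc4 or both. Gsdmc2 was untested over all libraries and passed the filter in these smaller fits through its PBS libraries alone, where it was high, so that its calls were fixed by the filter and are no result.

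ESCRT proteins bud off damaged membrane and are known to counter both MLKL and gasdermin D pores. Of 11 ESCRT genes listed, 5 were called higher and none lower, with a median log2 fold change of 0.40. The share called is near the 43.0% of all genes, of which 23.3% were higher. Chmp2b had 21.7, 21.4, 21.9 and 22.1 normalized CPM in PBS replicates 1 to 4 and 101.8, 122.7, 112.3 and 130.4 in TNF replicates 1 to 4. Its rise of 2.42 (SE 0.12, edgeR adjusted p = 2.36e-07) was close to those of Mlkl and Gsdmd. Chmp4b, a main filament subunit, rose by 0.97 (SE 0.12, edgeR adjusted p = 7.60e-05) and Pdcd6ip, which encodes ALIX, by 0.56 (SE 0.14, edgeR adjusted p = 0.00825). Chmp2a (0.77) and Chmp6 (0.40), named after the fact, were the other genes called. The count was 3 without PBS replicate 1 or without TNF replicate 2, where Pdcd6ip and Chmp6 were lost. With library size alone the count was 1, Chmp2b, against 757 of the 13368 genes tested. Chmp6 also lost its call with the replicate block (edgeR adjusted p = 0.0594), without a filter beyond 1 count, and when PBS replicate 2, 3 or 4 or TNF replicate 1 was left out.

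**Figure D5:**
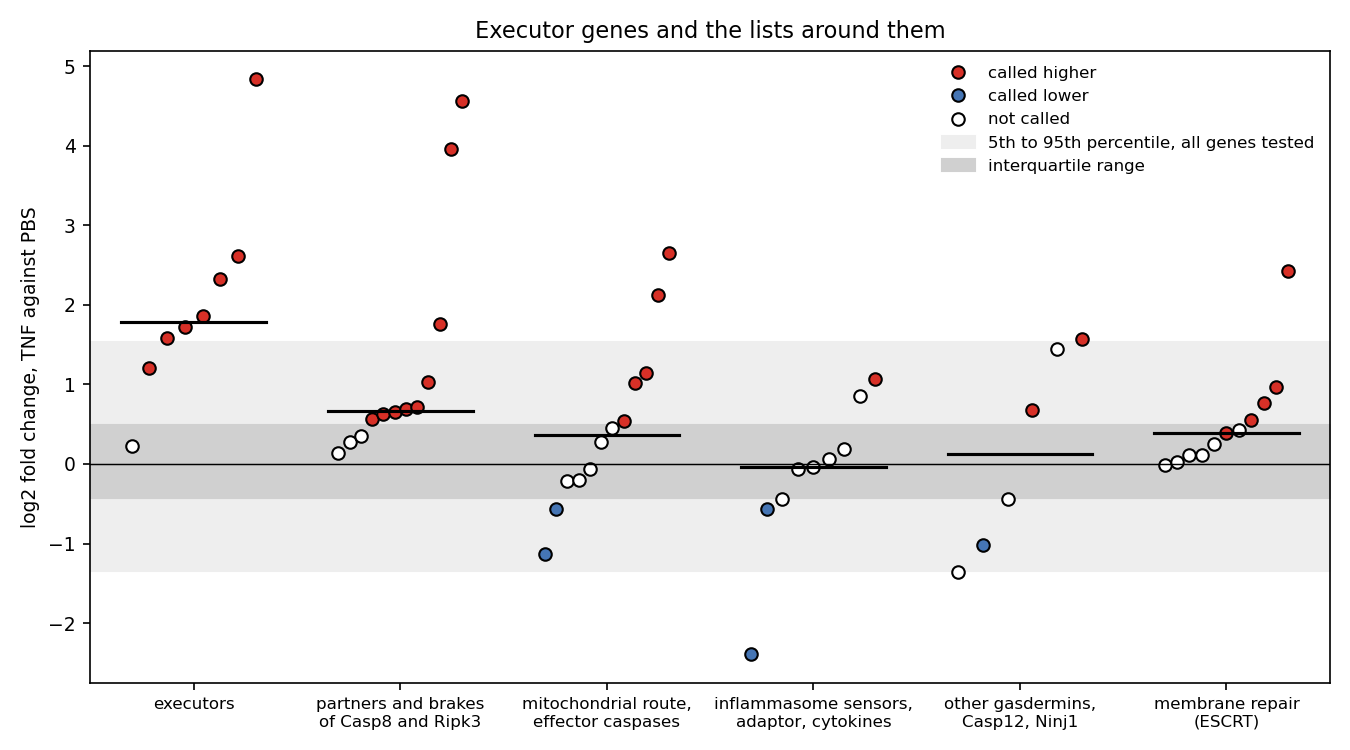
Log2 fold change of TNF against PBS (log2 scale) for each tested gene of the executors and of the 5 neighbouring lists, red where called higher, blue where called lower and open where not called, with a bar at each list's median. The bands behind them hold the 5th to 95th percentile and the interquartile range of all 13368 genes tested. The executors' median is 1.79, those of the other lists run from -0.03 to 0.67, and that of all genes is 0.03.

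Genes whose log2 CPM over the 8 libraries was most like that of an executor are given as a description, by Pearson's r, among protein-coding genes with a mean of at least 5 normalized CPM. The 8 points share the difference between the groups and their libraries' scaling, so any gene that rose evenly correlates with them. Casp8 was most like Bid and Relb (both r = 0.996), and Ripk3 most like Bak1 (0.992) and Nherf1 (0.989). Mlkl was most like Ier5 (0.997) and Rfc5 (0.995), and Zbp1 most like Fubp1 (0.999) and Cybc1 (0.997). For Casp1 these were Med7 (0.996) and Dcaf13 (0.993), for Casp4 Mak16 and Cxcl11 (both 0.998), and for Gsdmd Nfkbie and Ifi35 (both 0.990). Fadd, which did not separate the groups, was most like Ahsa1 (0.945) and Actl6a (0.939).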

How the data were processed

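RNA of sorted Paneth cells was sequenced by the authors from 4 PBS and 4 TNF libraries made, per the labels, with a stranded mRNA kit. The authors deposited raw counts for 55414 Ensembl gene IDs, not normalized. The submitters' processing notes name FastQC 0.12, STAR 2.7.10a, DESeq2 and the mm39 build. What the sources used here do not give is the counter, its annotation, its strand setting and its handling of reads that match several genes. Antisense transcripts that share exon bases with Fadd, Mlkl, Casp1 and Gsdmd can therefore not be told apart from them.

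Symbols, positions and lengths came from GENCODE M39 (GRCm39), which matched 54749 IDs and left 665 unmatched. TNF was compared with PBS for each gene in edgeR 4.0.16 (R 4.3.3) by its quasi-likelihood test, with TMM scaling, the filterByExpr filter (13368 genes kept, all 8 executors among them), no covariate and Benjamini-Hochberg adjustment over all genes tested. A call means an adjusted p under 0.05. Each standard error (SE) is the log2 fold change over the root of its F statistic, and intervals use the t distribution of that fit. The procedure was tested on simulated counts. The 5 ratios were compared by two-sided exact permutation tests over the 8 libraries. Nothing in the labels pairs the replicates, and same-numbered libraries did not deviate together. P-values measure the spread between these libraries, and limits from counts cover counting error only. No library was a copy of another.

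The executors, the other gene lists, the marker lists and the motifs were chosen with earlier results of these data known. The text names all 8 executors, the 3 called genes with the smallest p of each list, Ripk1, Cflar and Pycard, and the 2 genes most correlated with each executor. Any other gene was named after its values were seen. Some genes counted in the lists are not reported here by name. Promoters are the 300 bases before the canonical start in GRCm39, and both strands were searched. The alternatives tried were DESeq2 1.42.0, limma-voom (limma 3.58.1), a block on the replicate number, scaling by RLE, by library size alone or without alpha-defensin genes, no filter beyond 1 count, a minimum of 1 CPM in 4 or more libraries, an adjusted p under 0.01, leaving out each library and, for ratios, adding 1 to each count or flipping signs over pairs.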

Additional observations from a re-analysis of the deposited data

Results flagged for a closer look

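Of 60 groups of 4 libraries checked for the named genes and ratios, 6 had 1 library far from the other 3, by a gap to its nearest neighbour above Dixon's 95% limit. Chance alone gives about 1 in 20. Casp1 was highest in PBS replicate 1, at 12.1 normalized CPM against 10.3 to 10.4 in the other PBS libraries, a gap of 0.897 of the range. The log2 ratio of Casp4 to Casp1 was highest in TNF replicate 3, at 2.55 against 1.99 to 2.03 (gap 0.929), and the log2 difference between the groups without that library was 3.54 in place of 3.68.

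Both Apaf1 (17.6 against 12.7 to 13.3 normalized CPM, gap 0.869) and Nlrc4 (67.1 against 42.7 to 46.3, gap 0.854) were highest among PBS libraries in replicate 4. TNF replicate 4 stood apart for Pycard (49.0 against 20.3 to 24.4, gap 0.855) and for Ninj1 (77.9 against 54.2 to 57.9, gap 0.847). That library also had the lowest TMM factor, 0.448, and the largest share of counts on alpha-defensin genes, 51.4%. Under scaling by total counts alone, Pycard in TNF replicate 4 stood at 21.9 CPM, within the 21.6 to 25.0 of the other TNF libraries. On that scale Ninj1 was lowest in TNF replicate 4, at 34.9 CPM against 57.5 to 60.9. The part of the TMM factor and of the alpha-defensin share in the levels of Pycard and Ninj1 was not tested.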

How the results depend on the processing

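Across the alternatives for the 8 executors, 134 values kept their direction and their side of the threshold and 2 did not. With library size alone, Casp1 stood at 0.70 and was no longer called, so that 6 executors were called, and Fadd, uncalled throughout, turned from 0.22 to -0.19. The same scaling gave 3182 genes called, 757 of them higher, and fewer genes called higher among partners (3), the mitochondrial route (2), inflammasome genes (0, with 3 lower), other gasdermins (1, with 2 lower) and ESCRT genes (1). The cause was not tested. Without a filter beyond 1 count, 4 inflammasome genes and 3 other gasdermins were called lower. Of the added genes, Nlrp1b and Gsdmc2 had not passed the usual filter, while Pycard and Gsdmc4 had. At an adjusted p under 0.01, 1691 genes were lower, 1 other gasdermin was higher and 3 ESCRT genes were higher. Leaving out 1 library at a time gave 4757 (without PBS replicate 1) to 6923 (without TNF replicate 4) genes called, 2469 to 3657 higher and 2288 to 3266 lower, 7 executors higher each time, 2 to 4 inflammasome genes lower, 1 to 3 other gasdermins higher and 1 to 3 lower, and 3 to 6 ESCRT genes higher. Among the lower calls these fits added, those of Nlrp1b and Gsdmc2 were fixed by the filter, which both genes passed through PBS libraries alone.

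The replicate numbers did not pair the libraries (correlations of deviations -0.14 to 0.07, with 4 of 8 libraries closest to their own number). With the replicate block 5087 genes were called, the 7 executors among them. Flipping signs over pairs left the log2 differences of the ratios at 3.68 (Casp4 to Casp1), 1.15 (Gsdmd to Casp1), 1.09 (Mlkl to Ripk3) and -1.29 (Cflar to Casp8), but 4 pairs allow no p below 0.125 in this exact permutation test. Among the executors Mlkl had the fewest counts, 25 to 59 per PBS library, and the depth leaves Il1b, Il18 and Nlrp3 without a test.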

Other observations

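The NAIP proteins sense bacterial flagellin and secretion needles for NLRC4, and none of the 4 Naip genes tested was called while Nlrc4 rose. Their log2 fold changes were -0.03 for Naip1, 0.19 for Naip2, 0.06 for Naip5 and -0.06 for Naip6 (edgeR adjusted p from 0.171 to 0.959). Naip6 had 276 to 631 counts in PBS libraries and 215 to 440 in 3 TNF libraries, but none in TNF replicate 2, where 3 counts would be 0.104 normalized CPM. Without that library the log2 fold change of Naip6 was 0.33 (edgeR adjusted p = 0.195), and it was 0.08 without PBS replicate 1 (edgeR adjusted p = 0.949). It was -2.46 by limma-voom (adjusted p = 0.231) and -0.54 both with library size alone (edgeR adjusted p = 0.645) and with a block on the replicate number (edgeR adjusted p = 0.686), while the other alternatives gave -0.30 to -0.06, and none of them called Naip6. Of the 75-base stretches of the Naip transcripts, 75.8% (Naip5) to 91.8% (Naip2) occur in no transcript of another gene. Reads that match several Naip genes are therefore uncertain, and their part in the missing Naip6 counts was not tested.

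Nlrp1b, a sensor of bacterial proteases that acts through caspase-1, was too low for the main filter. It had 19, 9, 10 and 19 counts in PBS replicates 1 to 4 and 0, 3, 0 and 0 in TNF replicates 1 to 4. Every PBS library was thus above every TNF library. Gsdmc had no count in any library.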
